A study of Mus musculus with 32 samples.

Results

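The genes described here are 35 members of the DNA replication and S phase machinery, followed in E14 mouse embryonic stem cells while 2iL or 2i was withdrawn. They were found by symbol among the 31053 genes of the count files. All 35 were present, each with 1 Ensembl identifier, and all 35 passed the filter on low counts. The lowest count of any of them in a library was 5, for Tk1.

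E14 is an established line of embryonic stem cells, so a single genetic background stands behind every group. Both starting media were N2B27 with 2 inhibitors, CHIR99021 at 3 uM against GSK3 and PD0325901 at 1 uM against MEK. The 2iL medium also held the cytokine LIF. Both inhibitors, and LIF where present, were then removed by a change to plain N2B27. RNA was taken at 0, 24, 36, 48, 60, 72, 84 and 96 h in the 2iL course and at 0, 12, 24, 36, 48, 60, 72 and 84 h in the 2i course. Each of the 16 groups had 2 libraries, and 1 of them, 2iL 36 h replicate 2, was left out because it held 7298 counts. The 2iL 36 h group therefore has 1 library and no spread of its own.

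The 31 libraries used held 1122648 to 3438514 counts. Levels below are CPM (counts scaled to a common library size with TMM factors), and 3 counts correspond to 0.873 to 2.67 CPM. Values after ± are standard deviations of 2 libraries for levels and standard errors for log2 fold changes. The labels do not say whether replicates came from separate cultures, so the p-values rest on the spread of these samples alone, which may be technical. Statements that libraries did not overlap rest on few libraries, mostly in genes already called, and are a description rather than further support. The share of all tested genes without such overlap was not counted. Libraries read from the 3′ end give levels that can be compared between samples, and no order of levels between genes is drawn here.

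The summed level of 6 embryonic stem cell markers was 1304 to 1502 CPM before withdrawal in both media. It was 338 to 371 CPM at 2iL 96 h and 314 CPM in both libraries at 2i 84 h. Most of these late sums was Sox2 alone, at 321.5 and 292.5 CPM at 2iL 96 h and 287.9 and 302 CPM at 2i 84 h. The median log2 fold change of the 6 markers against 0 h was -4.82 at 2iL 96 h and -5.255 at 2i 84 h. Sums of 5 fibroblast markers were 1.59 to 6.04 CPM before withdrawal, 20.1 to 21.4 CPM at 2iL 96 h and 20.8 to 30.04 CPM at 2i 84 h. Most of the sum at 2iL 96 h was Thy1 alone (14.94 and 10.89 CPM), with Col3a1 at 0 counts. At 2i 84 h Col1a1 was at 6.945 and 13.95 CPM and Thy1 at 2.526 and 6.973 CPM. Over all libraries 5 primitive endoderm markers summed to at most 9.47 CPM and 5 trophectoderm markers to at most 44.2 CPM. At 2iL 96 h the primitive endoderm markers Gata4 and Sox7 and the trophectoderm marker Cdx2 were at 0 counts, while the trophectoderm marker Gata3 was at 7.14 and 4.67 CPM against 1.25 and 1.33 CPM at 2iL 0 h. At 2i 84 h Cdx2 was at 32.8 and 20.9 CPM against 10.3 and 10.99 CPM at 2i 0 h, and the trophectoderm sum was 33.3 to 44.2 CPM against 11.1 to 19.8 CPM. Of the other trophectoderm markers at 2i 84 h, Gata3 was at 10.1 and 10.19 CPM, Krt7 at 0 counts, Elf5 at 2 and 1 counts and Hand1 at 0 and 3 counts. Whether such cells were present, and their part in the results, was not tested. In such bulk samples, fewer cells in S phase and less RNA of these genes per cell cannot be told apart.

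In 4 libraries (replicate 1 of 2iL 48 h, replicate 2 of 2iL 84 h, replicate 1 of 2iL 96 h and replicate 2 of 2i 12 h), known from earlier work on these data to stand apart, the members split in a repeated way. Compared with the other library of the same group, 10 members were lower in all 4: Cdt1, Mcm2, Mcm4, Mcm6, Cdc45, Gins2, Pcna, Pola2, Fen1 and Rrm2. In all 4, 7 members were higher: Mcm7, Pola1, Pole, Lig1, Slbp, Chaf1a and Chaf1b. The same counts over all tested genes were not made, so whether this split is particular to the members is not known. For Pcna the level was 35.3 against 74.2 CPM at 2iL 48 h, 25.3 against 58.4 CPM at 2iL 84 h, 14.3 against 37.7 CPM at 2iL 96 h and 26.5 against 58.3 CPM at 2i 12 h. For Pola1 the same pairs stood at 477 against 308 CPM, 395 against 271 CPM, 325 against 165 CPM and 591 against 377 CPM. Calls lost when these 4 libraries were left out are given with that value beside the gene. In that fit each of these 4 groups has 1 library and no spread of its own, so p-values there rest on the spread of other groups.

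A replication origin is first marked by the origin recognition complex (Orc1, Orc6), onto which Cdc6 and Cdt1 load the MCM2-7 ring, the core of the replicative helicase. At the start of S phase Mcm10, Cdc45 and the GINS complex (Gins1, Gins2, Gins3) turn that ring into an active helicase, single strands are coated by replication protein A, and DNA polymerases copy them on the sliding clamp PCNA. Transcription factors of the E2F family, held in check by RB proteins, drive many of these genes as cells enter S phase. Mouse embryonic stem cells are known for short G1 phases, which lengthen as the cells differentiate.

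The promoters of several members carry letters that E2F proteins are known to bind. RefSeq promoter windows (GRCm38.p6, 300 bases from 250 before to 50 after the annotated start) were found for 31 of the 35 members. Mcm4, Gins1, Gins2 and Pole had none. Stretches of 80 bases upstream of the start that touch no annotated exon are printed 5′ to 3′ on the gene's strand for 4 members, with the E2F letters in capitals. They lie at chr8:75109322-75109401 (plus strand, Mcm5, a helicase ring subunit), chr1:128359745-128359824 (minus strand, Mcm6, another ring subunit), chrX:93632250-93632329 (minus strand, Pola1, the catalytic subunit of DNA polymerase alpha) and chr1:191575545-191575624 (minus strand, Dtl, the substrate receptor of the ubiquitin ligase that removes Cdt1 in S phase).
Mcm5: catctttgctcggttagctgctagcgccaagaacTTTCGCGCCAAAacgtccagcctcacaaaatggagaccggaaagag
Mcm6: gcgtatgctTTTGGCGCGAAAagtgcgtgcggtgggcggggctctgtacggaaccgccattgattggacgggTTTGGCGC
Pola1: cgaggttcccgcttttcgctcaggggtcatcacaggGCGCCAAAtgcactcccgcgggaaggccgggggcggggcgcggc
Dtl: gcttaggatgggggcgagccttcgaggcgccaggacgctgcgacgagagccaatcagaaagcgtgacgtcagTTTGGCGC

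The letters searched were TTTCCCGC, TTTGGCGC, TTTCGCGC and TTTGCCGC on both strands, and a stretch may hold overlapping copies, as in Mcm5 and Mcm6. At least 1 copy stood in 13 of the 35 windows of members (37.1%), against 2.26% of 32851 windows of all genes. These 13 windows belong to Orc1, Cdc6, Cdt1, Mcm3, Mcm5, Mcm6, Mcm7, Gins3, Rfc3, Pola1, Pold1, Lig1 and Dtl. The letters CCAAT, bound by the factor NF-Y, stood in 60% of the members' windows and 37.4% of all windows. The members' windows were also richer in G and C, with a median of 60% against 52.7%. A match is a description of letters, not of binding.

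By their median the members stood slightly above their level at 0 h early and below it late (the plot of log2 fold changes over time). After 2i withdrawal the median log2 fold change of the 35 members against 0 h was 0.19 at 12 h, 0.25 at 24 h, 0.20 at 36 h and 0.09 at 48 h. It was then -0.17 at 60 h, -0.28 at 72 h and -0.27 at 84 h. After 2iL withdrawal the medians turned negative later, with values of 0.12, 0.08, 0.22, 0.16 and 0.00 from 24 to 72 h, -0.11 at 84 h and -0.66 at 96 h. The median over all 12556 tested genes stayed between -0.05 and 0.02 at every time.

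The early part of that course depends on scaling. Without TMM factors the median of all genes at 2i 12 h was -0.34 and that of the members -0.13, and members above 0 numbered 11 in place of 24. At 2iL 24 h the medians without TMM factors were -0.25 and -0.10, and 13 members in place of 23 were above 0. The 10 most abundant genes took 35.5% and 43.5% of counts at 2i 12 h and 30.6% and 30.5% at 2iL 24 h, against 17.1% to 24.7% before withdrawal. The late part of the 2i course depends on scaling too. Without TMM factors the members' median was -0.03 at 2i 72 h and -0.07 at 2i 84 h, with 17 and 16 members above 0 in place of 9 and 10, where the median of all genes was 0.23 and 0.20. At 2iL 96 h it was -0.59, with 7 members above 0 in place of 6, where the median of all genes was 0.06.

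**Figure D1:**
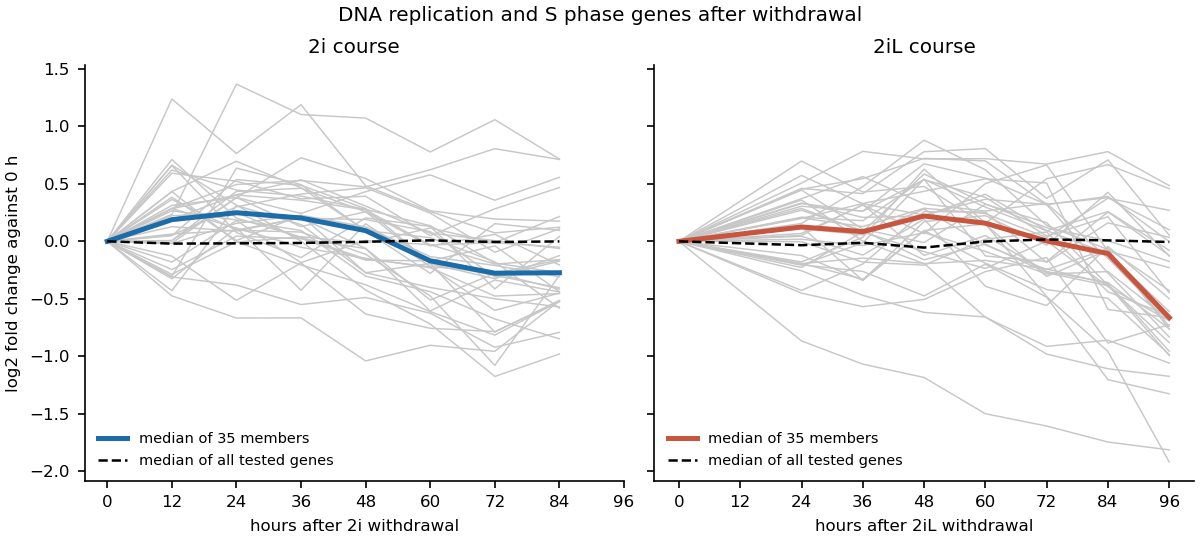
Log2 fold change against 0 h of the same course (y axis) over hours after withdrawal (x axis) for each of the 35 members (grey), their median (colour) and the median of the 12556 tested genes (dashed), in the 2i course and the 2iL course. The members' median is above 0 up to 48 h in the 2i course and up to 72 h in the 2iL course, and lowest at 2iL 96 h (-0.66). Without TMM factors the medians at 2i 12 h and 2iL 24 h are below 0.

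Before withdrawal the media did not differ in any of these genes by the test. In 2i against 2iL, 0 of 35 members were higher and 0 lower by edgeR's quasi-likelihood test, while 3.75% of all tested genes were higher and 4.24% lower. DESeq2 also called 0, and at an unadjusted p under 0.05 edgeR had 0 members higher and 3 lower. Those 3 were chosen here after their values were seen. Tk1, the salvage enzyme that phosphorylates thymidine, was at 14.99 and 18.2 CPM in 2iL and lower in both 2i libraries, at 9.13 and 6.59 CPM. Its log2 fold change did not pass (-1.04 ± 0.34, adjusted p = 0.058). For E2f1, the activator E2F, the log2 fold change was -0.60 ± 0.25 (adjusted p = 0.165), and for Chaf1b, a subunit of the histone chaperone CAF-1, it was -0.50 ± 0.22 (adjusted p = 0.206). The counts of lower members were 4 without the 4 libraries that stand apart and 5 in a fit of these groups alone.

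Tested over all 7 times jointly, 18 of 35 members (51.4%) changed in the 2i course, where 52.3% of all tested genes did. In the 2iL course 22 members (62.9%) changed, against 56.5% of all tested genes. Both shares are near the background. The 2i count was 29 without the 4 libraries that stand apart (63.7% of all tested genes), 28 in a fit of that course alone (68.7%), 9 with DESeq2 (45.7%) and 8 without TMM factors (54.2%), and the 2iL count was 14 in a fit of that course alone. In 13 comparisons 27 members passed at least once. Orc6, Mcm7, Rfc4, Pola2, Lig1, Slbp, Chaf1a and Chaf1b never passed. Leaving out 1 library moved the 2i count to 10 (replicate 1 of 2i 0 h, or replicate 2 of 2i 36 h) or to 9 (replicate 2 of 2i 72 h).

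The direction was uneven late in the 2iL course. At 2iL 96 h 17 of 35 members (48.6%) were lower than at 0 h and 1 was higher, against 20.1% and 19.5% of all tested genes (39.5% in either direction). At 2iL 72 h 3 members were lower and 1 higher, against 14.1% and 14.6% (28.8% in either direction). At 2i 72 h 8 members (22.9%) were lower and 1 higher, against 14.2% and 14.1% (28.2%). At 2i 84 h 6 members (17.1%) were lower and 1 higher, against 16.6% and 16.6% (33.2%). With replicate 1 of 2i 0 h left out, 2 members were called lower at 2i 72 h and 3 at 2i 84 h. At 2i 72 h 5 were called lower without its replicate 1, of which 4 are among the 8, and 4 without its replicate 2. At 2i 84 h 2 were called lower without its replicate 2. Without TMM factors 1 member was lower at 2i 72 h, 2 at 2i 84 h and 13 at 2iL 96 h, and DESeq2 called 4, 4 and 15 lower.

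Reads outside annotated genes made up 53.8% and 50.2% of uniquely aligned reads at 2iL 96 h, against 46.7% and 40.8% at 2iL 0 h. In the 2i course they were 49.0% and 51.7% at 72 h and 53.6% and 55.4% at 84 h, against 30.4% and 46.1% at 0 h. Their part in the late falls was not tested.

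**Figure D2:**
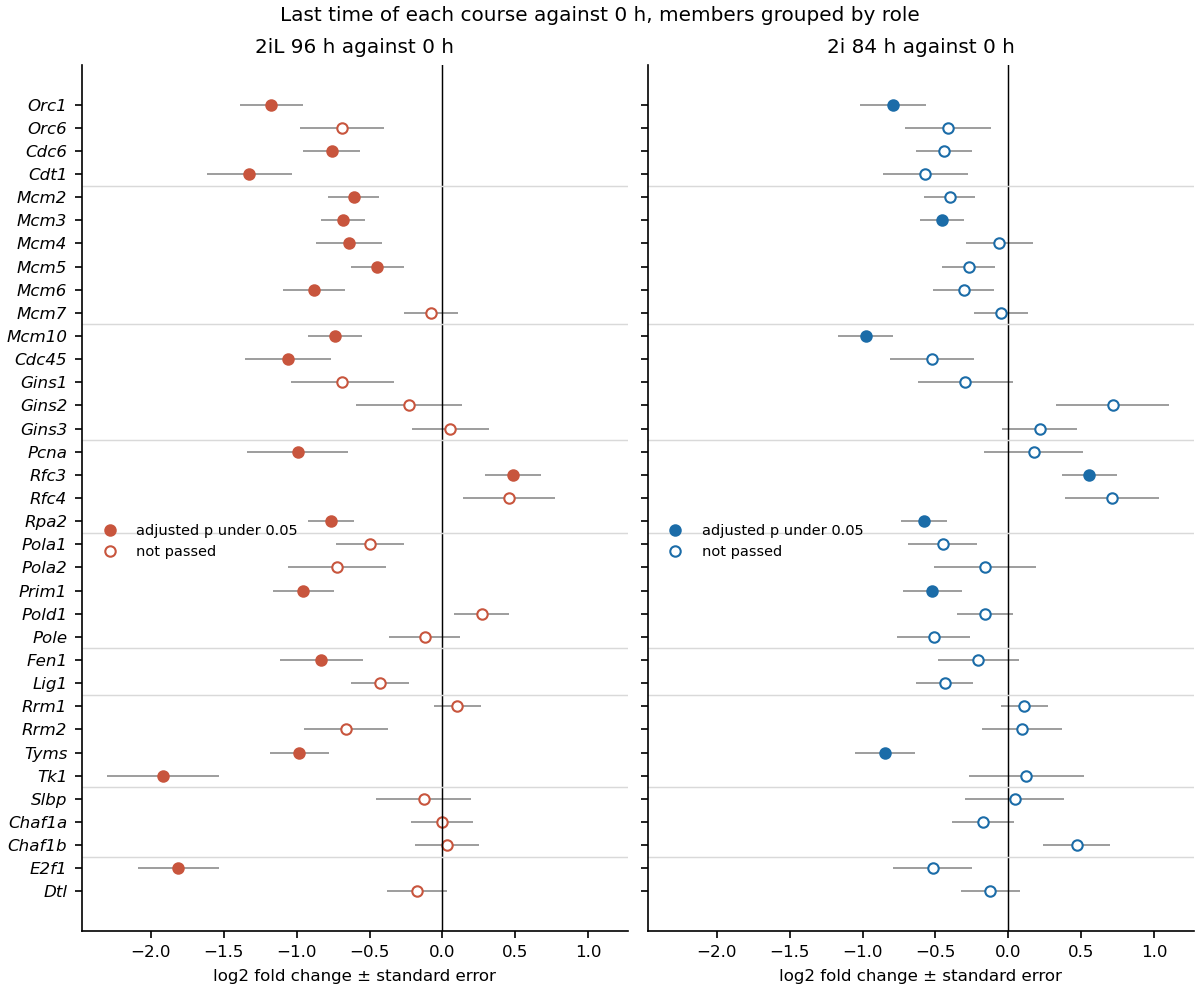
Log2 fold change with its standard error (x axis) for each of the 35 members (y axis, ordered by role, with lines between roles) at 2iL 96 h and at 2i 84 h against 0 h. Filled points passed the test (adjusted p under 0.05). At 2iL 96 h 17 filled points lie below 0 and 1 above it, and at 2i 84 h 6 lie below and 1 above.

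Of the origin licensing genes none passed as higher at any time tested. At 2iL 96 h 3 of the 4 (Orc1, Cdc6, Cdt1) were lower, against 20.1% of all tested genes. Orc1, an ATPase subunit of the origin recognition complex (ENSMUSG00000028587, mm10 chromosome 4, 108579423 to 108614833), stood at 69.5 and 57.1 CPM in 2iL, 34.7 and 29.3 CPM at 72 h and 20.8 and 33.8 CPM at 96 h. Its libraries at 72 and 96 h were all below those at 0 h (log2 fold change -0.98 ± 0.21 and -1.17 ± 0.22, adjusted p = 6.37e-04 and 7.31e-05). In the 2i course Orc1 was at 54.0 and 45.1 CPM at 0 h, 25.8 and 26.8 CPM at 72 h and 29.04 and 28.4 CPM at 84 h. Again no late library reached the level at 0 h (-0.92 ± 0.23 and -0.79 ± 0.23, adjusted p = 0.00329 and 0.00758). Without 2i 0 h replicate 1 these adjusted p-values were 0.0665 and 0.104, and without 2i 84 h replicate 2 the second was 0.0614. In both courses every group mean of Orc1 after withdrawal was below that at 0 h.

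Cdt1, the loader of the MCM ring that is destroyed once S phase begins, fell late. It was at 199 and 218 CPM at 2iL 0 h, 122 and 59.2 CPM at 84 h and 50.7 and 112 CPM at 96 h. The 96 h libraries were below those at 0 h but far apart from each other (log2 fold change -1.32 ± 0.29, adjusted p = 5.59e-04). The value was -0.87 when replicate 1 of 2iL 96 h was left out and -2.04 when replicate 2 was, and the call was kept in both fits. Cdc6, its partner in loading, was at 55.8 and 70.0 CPM at 2iL 0 h and at 41.6 and 33.5 CPM at 96 h (-0.76 ± 0.19, adjusted p = 0.00237). Without 2iL 0 h replicate 2 its adjusted p was 0.0610, and without 2iL 96 h replicate 2 it was 0.0580. For Orc6, a small subunit of the recognition complex, the log2 fold change at 2iL 96 h was -0.69 ± 0.29 (adjusted p = 0.0582).

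In the MCM ring 5 of 6 subunits were lower at 2iL 96 h, all but Mcm7, against 20.1% of all tested genes. Of these calls only that of Mcm3 was kept with each library left out and under every other setting. Mcm3 was at 587 and 708 CPM at 0 h and at 413 and 394 CPM at 96 h, with no overlap (log2 fold change -0.68 ± 0.15, adjusted p = 5.35e-04). Its fall also passed at 2i 72 h (-0.48 ± 0.15, adjusted p = 0.0177) and 2i 84 h (-0.45 ± 0.15, adjusted p = 0.0201), and each call was lost without 2i 0 h replicate 1 (0.135 and 0.126). The first was lost also without 2i 72 h replicate 1 (0.214), and the second without either 84 h library (0.111 and 0.0995). Mcm2 passed as higher at 2i 24 h and as lower at 2iL 96 h. It was at 190 and 168 CPM at 2i 0 h, 265 and 256 CPM at 24 h (0.54 ± 0.17, adjusted p = 0.0272) and 144 and 147 CPM at 72 h (-0.30 ± 0.18, adjusted p = 0.227). The 24 h call was lost with any of the 4 libraries compared left out (0.0808 to 0.197). Mcm2 in the 2iL course was at 199 and 192 CPM at 0 h, 264 and 255 CPM at 60 h and 114 and 141 CPM at 96 h. The last of these was lower than at 0 h (-0.61 ± 0.18, adjusted p = 0.00619).

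The calls of Mcm2, Mcm4, Mcm5 and Mcm6 at 2iL 96 h were each lost with some single library left out. Without 2iL 96 h replicate 1 the adjusted p was 0.106 for Mcm2, 0.341 for Mcm4 and 0.0594 for Mcm6, and the log2 fold changes were -0.45, -0.34 and -0.58 in place of -0.61, -0.64 and -0.88. For Mcm5 it was 0.513 without 2iL 96 h replicate 2 (-0.18 in place of -0.45), and 0.0836 and 0.226 without either 0 h library. For Mcm4 it was 0.135 without 2iL 0 h replicate 1. The Mcm5 call was also lost with DESeq2 (0.1595), without TMM factors (0.0751), without the filter (0.0570) and with the replicate block (0.0515). With the shallow library kept its adjusted p was 0.0889, and in a fit of that course alone 0.143. The Mcm4 call was also lost with DESeq2 (0.0573), without TMM factors (0.0864) and in a fit of that course alone (0.0731). When all 4 libraries that stand apart were left out, 2iL 96 h had 1 library. The log2 fold changes there were -0.44 for Mcm2, -0.71 for Mcm5, -0.57 for Mcm6 and -0.33 for Mcm4, whose call was lost. Mcm5 rose early in the 2i course, from 249 and 223 CPM at 2i 0 h to 386 and 338 CPM at 12 h (0.62 ± 0.18, adjusted p = 0.0222). The call was lost without either 0 h library (0.0838 and 0.162) or without 2i 12 h replicate 1 (0.158). Mcm7, whose locus overlaps Ap4m1 and Cops6 on the other strand, was at 936 and 933 CPM at 2iL 0 h and at 1031 and 741 CPM at 96 h. Its log2 fold change there was -0.08 ± 0.19.

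Among the helicase activators Mcm10 (ENSMUSG00000026669, mm10 chromosome 2, 4989714 to 5012791), which takes part in activating the ring, rose and fell in both courses. From 2i it was at 181 and 154 CPM at 0 h and 283 and 246 CPM at 12 h. It was then at 86.6 and 61.0 CPM at 72 h and 75.1 and 94.4 CPM at 84 h. All 12 h libraries were above and all late libraries below those at 0 h. The rise at 12 h (log2 fold change 0.66 ± 0.18, adjusted p = 0.0145) was lost without 2i 0 h replicate 2 (0.149) or 2i 12 h replicate 1 (0.129). The falls at 72 h (-1.17 ± 0.19, adjusted p = 1.79e-05) and 84 h (-0.98 ± 0.19, adjusted p = 1.30e-04) were kept with any single library left out. From 2iL, Mcm10 was at 133 and 163 CPM at 0 h, 231 and 251 CPM at 24 h and 88.3 and 89.1 CPM at 96 h. The rise at 24 h (0.70 ± 0.18, adjusted p = 0.00970) and the fall at 96 h (-0.74 ± 0.19, adjusted p = 0.00194) passed. The rise was lost without 2iL 0 h replicate 1 (0.156) or 2iL 24 h replicate 2 (0.0779), and the fall without 2iL 0 h replicate 2 (0.0572). Without TMM factors no member was called higher at 2i 12 h or at 2iL 24 h.

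Cdc45, the subunit that completes the active helicase with GINS, was at 26.6 and 25.3 CPM at 2iL 0 h, 15.9 and 11.3 CPM at 72 h and 9.74 and 14.4 CPM at 96 h. It was lower at both times (-0.91 ± 0.29 and -1.06 ± 0.30, adjusted p = 0.0164 and 0.00507). The 72 h call was lost without 2iL 72 h replicate 2 (0.171) or replicate 1 of 2iL 0 h (0.0843), and the 96 h call without replicate 1 of 2iL 96 h (0.0711). Its gene overlaps Ufd1 on the other strand.

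The GINS genes did not share a direction. Gins2 rose from 28.99 and 20.9 CPM at 2i 0 h to 74.5 and 56.5 CPM at 24 h (1.37 ± 0.37, adjusted p = 0.00811) and stood at 45.4 and 60.3 CPM at 72 h (1.06 ± 0.38, adjusted p = 0.0385). Every library at these times was above those at 0 h, yet the 24 h call was lost without 2i 0 h replicate 2 (0.102) or 2i 24 h replicate 1 (0.0874), and the 72 h call with any of its 4 libraries left out (0.0591 to 0.197). Gins2 overlaps Gse1 on the other strand. Gins1 was at 21.1 and 15.4 CPM at 2i 0 h and 10.4 and 6.70 CPM at 72 h (-1.08 ± 0.37, adjusted p = 0.0267). The call was lost without 2i 0 h replicate 1 (0.260) or 2i 72 h replicate 2 (0.243). Its values are near the depth limit, with 8 to 57 counts per library. At 2i 84 h it was back at 12.6 and 17.2 CPM (-0.30 ± 0.33). Gins3 passed only jointly over the 2iL course (adjusted p = 0.0308, 0.0958 without 2iL 0 h replicate 1, 0.0628 when the 4 libraries that stand apart were left out), with group means from 24.9 to 43.6 CPM.

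**Figure D3:**
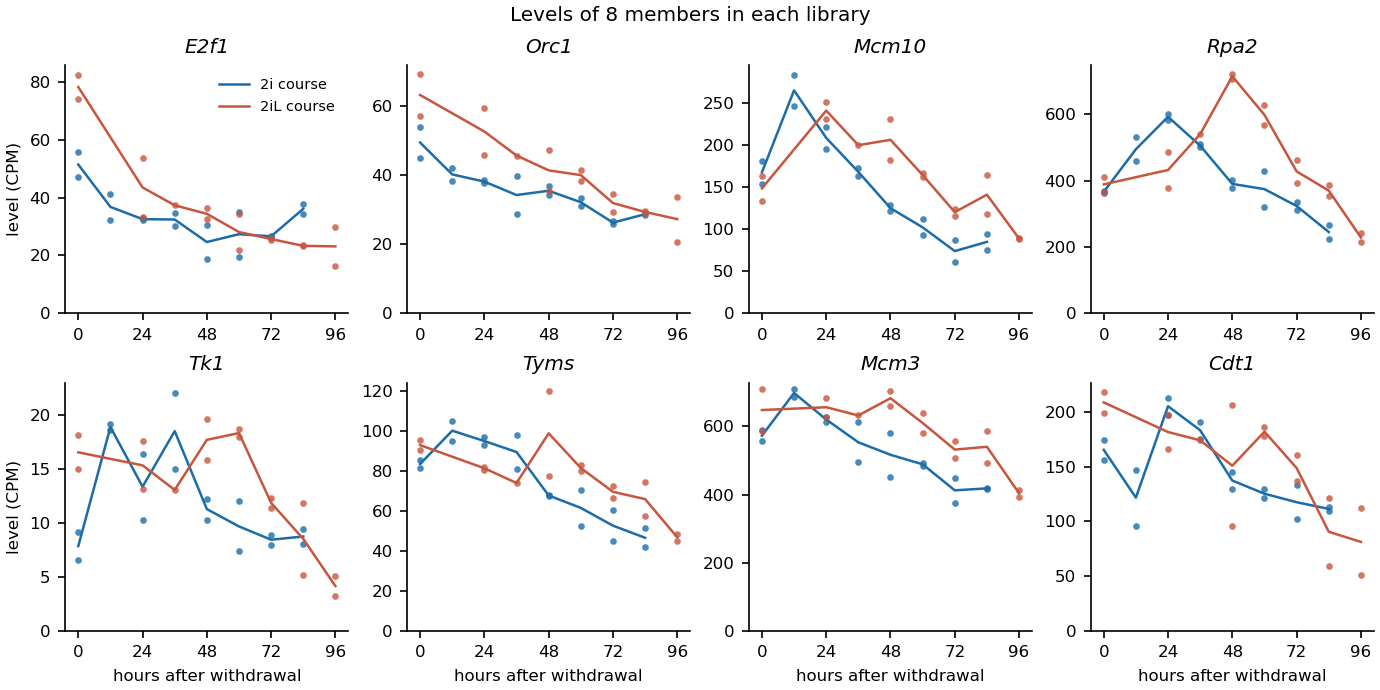
Level in CPM (y axis, from 0) over hours after withdrawal (x axis) for E2f1, Orc1, Mcm10, Rpa2, Tk1, Tyms, Mcm3 and Cdt1. Points are libraries and lines join group means of the 2i course (blue) and the 2iL course (red). Rpa2 peaks at 24 h in the 2i course (584 and 601 CPM) and at 48 h in the 2iL course (707 and 723 CPM).

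Rpa2, the middle subunit of replication protein A (ENSMUSG00000028884, mm10 chromosome 4, 132768332 to 132778752), passed as higher at 2i 24 h and as lower at the last time of both courses. From 2i it was at 362 and 370 CPM at 0 h, 584 and 601 CPM at 24 h and 267 and 224 CPM at 84 h. From 2iL it was at 366 and 411 CPM at 0 h, 707 and 723 CPM at 48 h and 216 and 242 CPM at 96 h. The peak libraries were above and the last libraries below all libraries at 0 h in each course. The rise at 2i 24 h (log2 fold change 0.70 ± 0.15, adjusted p = 0.00150) and the fall at 2iL 96 h (-0.76 ± 0.16, adjusted p = 2.55e-04) were kept with any library left out. The fall at 2i 84 h (-0.58 ± 0.16, adjusted p = 0.00501) was lost without 2i 84 h replicate 2 (0.111).

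The clamp and its loader went different ways at 2iL 96 h. Pcna, the sliding clamp, was at 57.9 and 51.4 CPM at 0 h and at 14.3 and 37.7 CPM at 96 h (-0.99 ± 0.35, adjusted p = 0.0225). Without 2iL 96 h replicate 1 the value was -0.51 (adjusted p = 0.307), and without either 0 h library the adjusted p was 0.107 and 0.0530. Without the 4 libraries that stand apart it was 0.0550. Pcna has near-identical pseudogene copies with which it can share reads, so its count is uncertain. Rfc3, a clamp loader subunit, was higher, at 57.9 and 61.1 CPM at 0 h and 87.7 and 79.4 CPM at 96 h (0.48 ± 0.19, adjusted p = 0.0422). It was higher also at 2iL 72 h (0.67 ± 0.19, adjusted p = 0.00660) and 2i 84 h (0.56 ± 0.19, adjusted p = 0.0214). The calls at 2iL 96 h and 2i 84 h were lost with any of the 4 libraries compared left out (0.0591 to 0.170 and 0.0532 to 0.130), and that at 2iL 72 h without 2iL 0 h replicate 1 (0.0614). For Rfc4, another loader subunit, the log2 fold change was 0.46 ± 0.31 at 2iL 96 h and 0.71 ± 0.32 at 2i 84 h (adjusted p = 0.257 and 0.0893), and its locus overlaps Eif4a2.

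Of the polymerases and primase, Prim1, the catalytic primase subunit, fell in both courses. It was at 43.3 and 50.5 CPM at 2iL 0 h and at 24.7 and 23.7 CPM at 96 h (log2 fold change -0.95 ± 0.21, adjusted p = 4.96e-04). From 2i, Prim1 was at 51.2 and 47.8 CPM at 0 h and 30.1 and 26.04 CPM at 72 h (-0.81 ± 0.21, adjusted p = 0.00407, and 0.0701 without 2i 72 h replicate 2). No library overlapped in either comparison. At 2i 84 h it was at 28.4 and 40.2 CPM (-0.52 ± 0.20, adjusted p = 0.0482), a call lost without 2i 84 h replicate 1 (0.427) or either 0 h library (0.209 and 0.0835).

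Pola1 was at 318 and 271 CPM at 2i 0 h and at 377 and 591 CPM at 12 h, where the second value is from a library that stands apart. The rise (0.71 ± 0.23, adjusted p = 0.0471) was 0.36 without that library (0.504), and the adjusted p was 0.121 and 0.251 without either 0 h library. Without all 4 libraries that stand apart the value was 0.38 (0.0861). Pole, the catalytic subunit of the leading strand polymerase, was at 64.7 and 40.7 CPM at 2i 0 h and at 33.8 and 27.5 CPM at 72 h (-0.79 ± 0.26, adjusted p = 0.0221). Without 2i 0 h replicate 1 its value was -0.38 (0.470), and without either 72 h library the adjusted p was 0.0550 and 0.205. Pold1, the catalytic subunit of polymerase delta, passed jointly in the 2i course (adjusted p = 0.0375, and 0.251 without 2i 60 h replicate 2) with a lowest group mean of 76.6 CPM at 60 h. Pola2, the accessory subunit of polymerase alpha, did not pass, with a log2 fold change of -0.72 ± 0.34 at 2iL 96 h (adjusted p = 0.0888).

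Okazaki fragments are finished by the flap nuclease Fen1 and the ligase Lig1. Fen1 was at 59.1 and 54.9 CPM at 2iL 0 h, 70.4 and 101 CPM at 24 h and 21.4 and 40.5 CPM at 96 h. The 96 h libraries lie below and the 24 h libraries above those at 0 h. Only the fall passed (log2 fold change -0.83 ± 0.28, adjusted p = 0.0200), and without 2iL 96 h replicate 1 it was -0.47 (0.266). Without either 0 h library its adjusted p was 0.0907 and 0.0528, and without the 4 libraries that stand apart it was 0.0858. Lig1 was at 1817 and 1750 CPM at 2iL 0 h and 1499 and 1154 CPM at 96 h (-0.43 ± 0.20, adjusted p = 0.0825). It was at 1627 and 1673 CPM at 2i 0 h and 1337 and 1100 CPM at 84 h (-0.44 ± 0.20, adjusted p = 0.0865). Lig1 overlaps Zswim9, and Fen1 overlaps Tmem258, each on the other strand.

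All 4 genes of nucleotide supply changed in both joint tests, along different courses. These tests called 52.3% (2i) and 56.5% (2iL) of all tested genes. In 2iL all 4 joint calls were kept with each library left out and under every other setting, and in 2i only that of Tyms. With DESeq2 the 2i joint calls of Rrm1 (0.0678), Rrm2 (0.0545) and Tk1 (0.0573) were lost. That of Tk1 was also lost without TMM factors (0.0936), and that of Rrm1 without the filter (0.0976). Tk1 was at 9.13 and 6.59 CPM at 2i 0 h, 19.2 and 18.6 CPM at 12 h and 9.47 and 8.05 CPM at 84 h. In the 2iL course it was at 14.99 and 18.2 CPM at 0 h, 18.8 and 18.0 CPM at 60 h and 3.25 and 5.06 CPM at 96 h. Its libraries at 2i 12 h were above and those at 2iL 96 h below the matching libraries at 0 h. The fall at 2iL 96 h (log2 fold change -1.92 ± 0.39, adjusted p = 1.93e-04) was kept with any library left out. The rise at 2i 12 h (1.24 ± 0.37, adjusted p = 0.0257) was lost with any of the 4 libraries compared left out (0.0704 to 0.156). Tk1 had 5 to 50 counts per library and overlaps Afmid on the other strand.

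Tyms, which makes thymidylate, fell late in both courses. It was at 90.3 and 95.2 CPM at 2iL 0 h and 44.8 and 48.6 CPM at 96 h (-0.98 ± 0.20, adjusted p = 2.50e-04). In the 2i course it was at 85.4 and 81.3 CPM at 0 h, 44.8 and 60.3 CPM at 72 h and 51.1 and 41.8 CPM at 84 h. All late libraries were below those at 0 h (-0.67 ± 0.21 and -0.85 ± 0.21, adjusted p = 0.0144 and 0.00195). The 72 h call was lost without 2i 72 h replicate 1 (0.228) or 2i 0 h replicate 1 (0.108), and the 84 h call without 2i 84 h replicate 2 (0.0636). Tyms too has a pseudogene copy, and its count is uncertain.

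The subunits of ribonucleotide reductase, which makes deoxynucleotides, peaked mid-course. Rrm1, the large subunit, was at 107 and 128 CPM at 2iL 0 h, 198 and 188 CPM at 48 h and 121 and 129 CPM at 96 h. It was at 142 and 134 CPM at 2i 0 h and 197 and 184 CPM at 48 h. The mid-course libraries were above all libraries at 0 h, and the joint tests gave adjusted p = 0.00169 for 2iL and 0.0288 for 2i. Rrm2, the small subunit, was at 46.6 and 48.3 CPM at 2iL 0 h, 76.2 and 61.5 CPM at 60 h and 24.0 and 34.6 CPM at 96 h. In the 2i course it was at 50.4 and 52.8 CPM at 0 h, 77.4 and 82.7 CPM at 24 h and 60.0 and 50.4 CPM at 84 h. Its joint tests gave adjusted p = 0.00143 and 0.0362. The 2i calls were lost in 9 of 16 fits with 1 library left out for Rrm1 (highest 0.106, without 2i 72 h replicate 2) and in 10 of 16 for Rrm2 (highest 0.132, without 2i 24 h replicate 2).

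Histone supply and chromatin assembly genes did not pass in any of the 13 comparisons. The log2 fold changes at 2iL 96 h were -0.13 ± 0.33 for Slbp, which binds histone mRNA, -0.00 ± 0.21 for Chaf1a and 0.03 ± 0.22 for Chaf1b, both subunits of CAF-1. Chaf1a was at 167 and 204 CPM at 2iL 0 h, 356 and 236 CPM at 48 h and 220 and 154 CPM at 96 h, so that first and last libraries overlapped. The higher 48 h value is from a library that stands apart.

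Of the regulators E2f1 (ENSMUSG00000027490, mm10 chromosome 2, 154559407 to 154569892) fell in both courses. In the 2iL course it was at 82.4 and 74.0 CPM at 0 h, 33.3 and 53.7 CPM at 24 h, 26.1 and 25.2 CPM at 72 h and 29.9 and 16.3 CPM at 96 h. Every library after withdrawal was below both libraries at 0 h. The log2 fold changes were -0.87 ± 0.27 at 24 h (adjusted p = 0.0336), -1.60 ± 0.27 at 72 h (1.86e-05) and -1.81 ± 0.28 at 96 h (3.87e-06). The 24 h call was lost without 2iL 24 h replicate 1 (0.285) or either 0 h library (0.170 and 0.0655), and the others were kept with any library left out. From 2i, E2f1 was at 55.6 and 47.3 CPM at 0 h, 32.8 and 32.2 CPM at 24 h, 26.4 and 26.8 CPM at 72 h and 37.9 and 34.3 CPM at 84 h. The fall passed at 72 h (-0.96 ± 0.29, adjusted p = 0.0118) and was lost without 2i 0 h replicate 1 (0.120) or either 72 h library (0.0832 and 0.0789). At 84 h the value was -0.52 ± 0.27 (adjusted p = 0.144).

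Dtl passed in both joint tests (adjusted p = 0.0490 for 2i and 0.0343 for 2iL) and in no single time. It was at 89.0 and 77.5 CPM at 2i 0 h and at 116 and 102 CPM at 24 h. Its 2iL levels were 75.8 and 74.4 CPM at 0 h, 126 and 99.4 CPM at 48 h and 74.7 and 59.5 CPM at 96 h. The 2i call was lost in 13 of 16 fits with 1 library left out (highest 0.173, without 2i 24 h replicate 1) and the 2iL call in 4 of 15 (highest 0.184, without 2iL 48 h replicate 1). Without the 4 libraries that stand apart the 2iL call was lost too (0.0743).

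**Figure D4:**
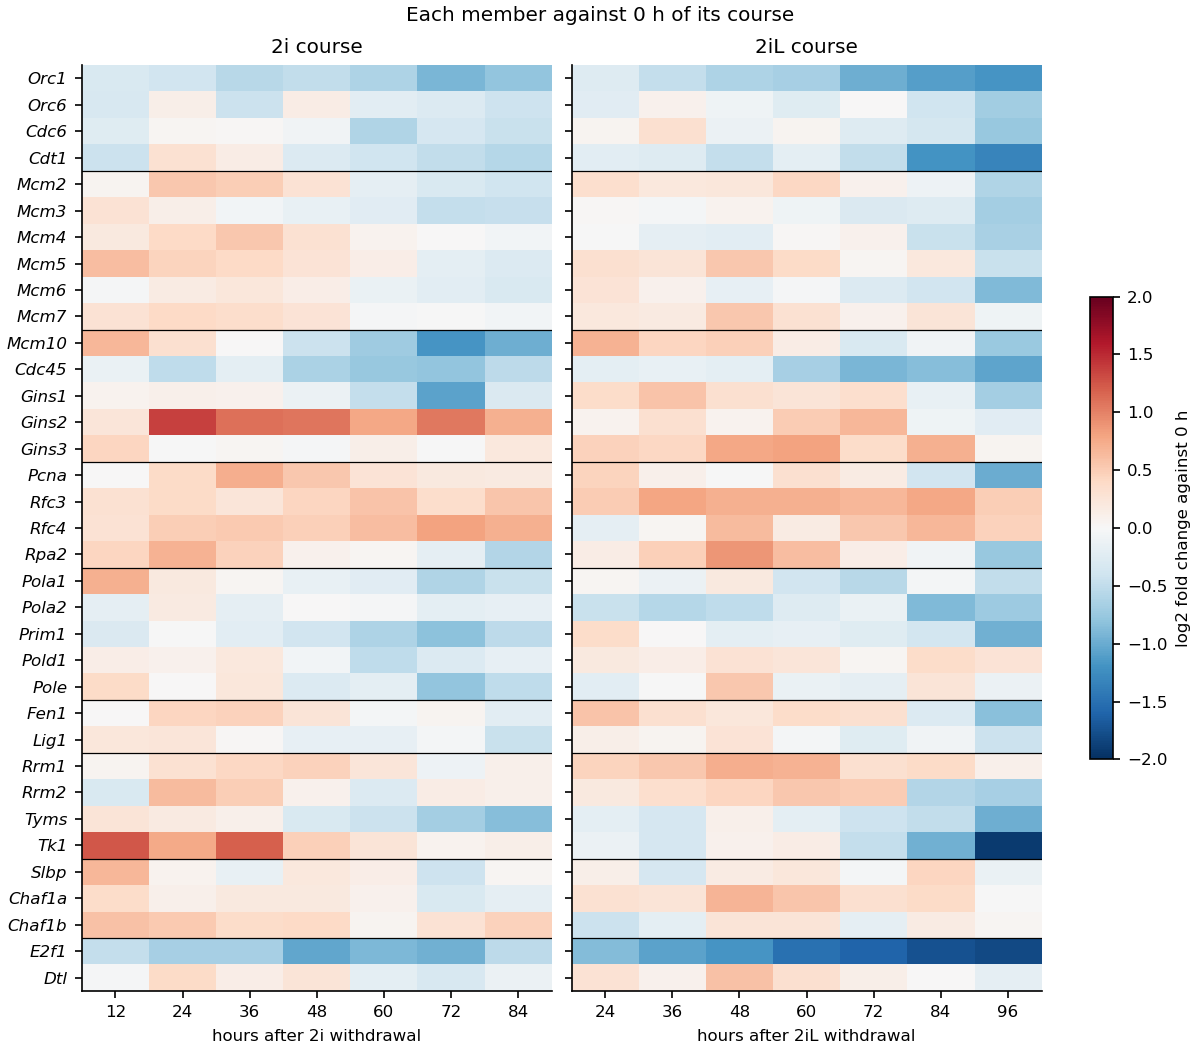
Log2 fold change against 0 h of the same course (colour, from -2 to 2) for each of the 35 members (y axis, ordered by role) at each time after withdrawal (x axis) in the 2i course and the 2iL course. E2f1 and Orc1 are below 0 at every time in both courses, Rfc3 is above 0 at every time, and 29 members are below 0 at 2iL 96 h. Without TMM factors the members' medians at 2i 12 h and 2iL 24 h are -0.13 and -0.10.

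The early calls were few. At 2i 12 h 4 members were higher (Mcm5, Mcm10, Pola1, Tk1) and 0 lower, against 5.43% and 5.37% of all tested genes. At 2i 24 h 3 were higher (Mcm2, Gins2, Rpa2) and 0 lower, against 8.47% and 8.86%. At 2iL 24 h Mcm10 was higher and E2f1 lower, against 5.65% and 5.92%. Counts this small are not read as a direction of the members. With replicate 2 of 2i 0 h left out, 0 members were called higher at 2i 12 h and 1 at 2i 24 h. At 2i 12 h 1 was called without replicate 1 of 2i 0 h, 1 without replicate 1 of 2i 12 h and 2 without replicate 2 of 2i 12 h. At 2i 24 h 1 was called without replicate 1 of 2i 24 h, and the count was 10 when the 4 libraries that stand apart were left out.

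How firm the falls at 2iL 96 h are varied by gene. Of the 18 calls there, 8 were kept with each library left out in turn and under every other setting tried: Orc1, Cdt1, Mcm3, Rpa2, Prim1, Tyms, Tk1 and E2f1. The number of lower members was 12 to 19 with a library left out and 13 to 19 under the other settings. Of the 10 members that were lower in all 4 libraries that stand apart, 7 are among the 17 (Cdt1, Mcm2, Mcm4, Mcm6, Cdc45, Pcna, Fen1). Without those libraries 16 members were lower at 2iL 96 h, of which 14 are among the 17.

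Whether LIF in the starting medium altered these courses was asked by testing the change in the 2iL course minus that in the 2i course. Jointly over the 6 shared times 3 of 35 members (8.57%) differed, against 22.5% of all tested genes: Rpa2 (adjusted p = 3.82e-04), Mcm10 (0.0336) and Rrm2 (0.0474). At 24 h 0 members differed in either direction by edgeR (background 1.79% higher, 1.29% lower and 3.08% in all), with 0 by DESeq2 and 0 higher and 3 lower at an unadjusted p under 0.05. The count of lower members was 4 without the 4 libraries that stand apart, 1 without TMM factors and 1 without the filter. At 72 h Mcm10 alone differed (background 5.56% higher, 4.24% lower and 9.8% in all), its change being higher by 0.87 ± 0.26 in the 2iL course on the log2 scale (adjusted p = 0.0310). Mcm10 was at 116 and 124 CPM at 2iL 72 h and at 86.6 and 61.0 CPM at 2i 72 h. Rpa2 was at 584 and 601 CPM at 24 h in the 2i course and at 487 and 378 CPM in the 2iL course, and at 48 h at 377 and 403 CPM against 707 and 723 CPM. The Rpa2 call was kept with each of 27 libraries left out in turn (highest adjusted p = 0.00395). Mcm10 was lost at 72 h without either 2iL 72 h library, replicate 1 of either 0 h group or replicate 2 of 2i 72 h (0.260 for the last), and jointly in 14 of 27 such fits. Rrm2 was lost in 23 of 27. Without TMM factors the adjusted p was 0.168 for Mcm10 at 72 h, 0.213 for Mcm10 jointly and 0.146 for Rrm2, and with DESeq2 it was 0.0737, 0.0534 and 0.0573. With the replicate block that of Rrm2 was 0.0586. Without the 4 libraries that stand apart 11 members differed jointly.

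Members differed in how far they ranged. The ratio of the highest to the lowest group mean was 1.59 to 4.56 with a median of 2.15, and the highest belonged to Tk1. Across the 16 group means, the correlation of each member with the mean of the other members ran from -0.45 for Rfc4 to 0.91 for Mcm2, with a median of 0.70. It was over 0.5 for 26 members and below 0 for 2. These points share libraries, depth and scaling, and the correlations are a description.

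The share of members with E2F letters was not higher among those that fell late. A search for exact letters can miss sites that E2F proteins bind, so it cannot separate members by their control. Whether E2F proteins take part in these falls was not tested. Of the members lower at 2iL 96 h 6 of the 16 with a window (37.5%) held them, and of the others 7 of 15 (46.7%). E2f1, Rpa2, Tk1, Tyms and Prim1 have a window without these letters, and Pola1 and Dtl, printed above, did not pass at 2iL 96 h (-0.50 ± 0.23 and -0.17 ± 0.20).

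Other genes of the pathway, from a list outside the members, were also more often lower than higher late. Of 38 further replication genes 16 were lower at 2iL 96 h (42.1%) and 1 was higher, against 20.1% and 19.5% of all tested genes. The list's median log2 fold change was -0.43. The smallest p-values were those of Ung, which removes uracil from DNA (-1.82 ± 0.24, adjusted p = 2.31e-07), Uhrf1, which brings the maintenance methyltransferase to replicated DNA (-1.28 ± 0.19, 1.96e-06), and Pole4, a small subunit of polymerase epsilon (-1.29 ± 0.21, 1.08e-05). At 2i 72 h 8 of the 38 were lower (21.1%) and 0 higher, against 14.2% and 14.1% of all tested genes.

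Of 20 genes of mitosis, 5 were lower at 2iL 96 h (25%) and 2 were higher (10%), against 20.1% and 19.5% of all tested genes. Their median log2 fold change was -0.24. At 2i 72 h 7 were lower (35%) and 0 higher, against 14.2% and 14.1% of all tested genes, with a median of -0.32. In the E2F and RB family 2 of 15 were lower at 2iL 96 h (13.3%) and 3 were higher (20%), against the same 20.1% and 19.5%. Cdk2, the kinase that starts S phase, fell by 1.74 ± 0.30 (adjusted p = 2.37e-05) on the log2 scale, while the repressor E2f7 (1.65 ± 0.29, 3.95e-05) and the E2F partner Tfdp2 (0.72 ± 0.19, 0.00337) were higher. These differences between lists were not tested. Without the 4 libraries that stand apart, the 2iL 96 h counts of higher mitosis genes and lower E2F and RB genes moved. They moved by more than the limit used below for counts of members. The counts of lower mitosis genes and higher E2F and RB genes at that time stayed within it. That fit has 1 library at 2iL 96 h. Its counts for these lists are not given, unlike its count of members above, so lists and members are not compared in that setting.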

How the data were processed

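RNA of E14 cells was read from the 3′ end of polyadenylated transcripts (NEGEDIA Digital mRNAseq, per the labels' protocols). The deposited values are raw counts of reads per gene, made with STAR 2.6.0a, HTSeq and the mouse build mm10, per the submitters' processing notes. The annotation release and the strand setting of the counting are not given in the sources used here. Lines that name no gene were left out. They held 23.4% to 55.4% of uniquely aligned reads as reads outside genes. The deposited CPM table of the whole series was not used.

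Of 32 libraries 31 were fitted together with edgeR 4.0.16 (R 4.3.3), with TMM factors, filterByExpr (12556 genes tested, 18497 filtered out), 1 coefficient per group and the quasi-likelihood test on 15 residual degrees of freedom. The Benjamini-Hochberg adjustment ran over all tested genes, and calls have an adjusted p under 0.05. All adjusted p-values in the text are from this test unless DESeq2 is named. CPM intervals were not computed, and 3 counts were taken as the floor for counting error only. Alternatives were DESeq2 1.42.0, no TMM factors, no filter, the shallow library kept, the 4 libraries that stand apart left out, only the course compared, a replicate block and each library left out in turn. The test was tried on simulated data.

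Members are all accounted for. Named by rule are, in each of 9 role groups, the members with the smallest p of each joint test and any with a called log2 fold change of at least 1. Others are named to complete their role. The members and lists were chosen with earlier results of these data known.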

Additional observations from a re-analysis of the deposited data

Results flagged for a closer look

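In 3 members the change after withdrawal differed between the 2iL and the 2i course by a test of the difference itself (edgeR, adjusted over all genes). The adjusted p was 3.82e-04 for Rpa2, 0.0336 for Mcm10 and 0.0474 for Rrm2, each jointly over 6 shared times. For Mcm10 the difference at 72 h alone also passed (adjusted p = 0.0310). The Rpa2 call was kept in each of 27 fits with 1 library left out. The joint Mcm10 call was lost in 14 of them, with DESeq2 (0.0534) and without TMM factors (0.213), and the 72 h call with DESeq2 (0.0737) and without TMM factors (0.168). The Rrm2 call was lost in 23 of 27, with DESeq2 (0.0573), without TMM factors (0.146) and with the replicate block (0.0586).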

How the results depend on the processing

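No call of a member with a direction was reversed under any alternative, and calls of the joint tests have no direction. Of 91 calls of members, 65 were kept by DESeq2, 50 without TMM factors, 80 without the filter, 79 with the shallow library kept, 85 without the 4 libraries that stand apart and 87 with the replicate block. In fits of only the course or groups compared, 72 of 87 were kept. With each library left out in turn, 39 of 91 were kept in every fit. The causes were not tested.

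In the following counts of members the alternatives moved the value by over 1.5 times. With DESeq2 the counts were 9 in the joint 2i test, 4 lower at 2i 72 h, 0 lower at 2iL 24 h, 0 higher in the difference at 72 h and 1 in the joint difference. Without TMM factors they were 1 lower in 2i against 2iL before withdrawal, 8 in the joint 2i test, 0 higher at 2i 12 h, 3 higher and 1 lower at 2i 72 h, 3 higher and 2 lower at 2i 84 h, 0 higher and 2 lower at 2iL 24 h, 1 lower in the difference at 24 h and 0 higher in that at 72 h. Without the filter they were 0 higher at 2i 84 h, 2 higher at 2iL 72 h, 0 higher at 2iL 96 h, 1 lower in the difference at 24 h and 7 in the joint difference. With the shallow library kept they were 0 higher at 2iL 96 h and 0 higher in the difference at 72 h.

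Without the 4 libraries that stand apart they were 4 lower in 2i against 2iL before withdrawal, 29 in the joint 2i test, 10 higher and 1 lower at 2i 24 h, 3 higher at 2i 72 h, 4 higher and 12 lower at 2i 84 h, 4 higher at 2iL 24 h, 3 higher and 6 lower at 2iL 72 h, 4 lower in the difference at 24 h, 3 higher in that at 72 h and 11 in the joint difference. In fits of only the course or groups compared they were 5 lower in 2i against 2iL before withdrawal, 28 in the joint 2i test, 14 in the joint 2iL test, 7 higher at 2i 12 h, 9 higher and 1 lower at 2i 24 h, 3 higher at 2i 72 h, 4 higher at 2i 84 h, 0 lower at 2iL 24 h and 0 higher at 2iL 96 h.

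With 1 library left out the joint counts ranged from 9 to 18 for 2i, from 18 to 28 for 2iL and from 1 to 7 for the difference. Members higher ranged from 0 to 2 at 2i 12 h, from 1 to 2 at 2i 24 h, from 0 to 1 at 2i 72 h, 2iL 24 h, 2iL 72 h and in the difference at 72 h, and were 0 at 2i 84 h and 2iL 96 h. Members lower ranged from 2 to 8 at 2i 72 h, from 2 to 6 at 2i 84 h, from 0 to 1 at 2iL 24 h and in the difference at 24 h, from 2 to 3 at 2iL 72 h and from 12 to 19 at 2iL 96 h. They were 0 in 2i against 2iL.

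Over 105 pairs of groups, the deviations of same-numbered libraries had correlations from -0.38 to 0.42 (median 0.006, 10 over 0.1 and 8 under -0.1). The samples were not treated as paired, and these values cannot exclude pairing. The replicate block gave 16 members lower at 2iL 96 h, 2 higher at 2i 72 h and 2 higher at 2i 84 h. Depth limits Tk1 and Gins1 most, with as few as 5 and 8 counts in a library.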
